A study of Homo sapiens with 6 samples.

Results

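The heat shock chaperones described here are 10 genes of the cytosol and the mitochondrion: HSPA1A, HSPA1B, HSPA8, HSP90AA1, HSP90AB1, HSPH1, DNAJB1, HSPB1, HSPD1 and HSPE1. They were chosen by gene name and found by Ensembl identifier among the 60656 genes of the count table, and all 10 had enough counts to be tested. RNA was measured in ZR-75-1, an oestrogen receptor-positive human breast cancer line that expresses RB1, in its parental form. One group of 3 libraries came from cells given DMSO, the solvent, and the other group of 3 from cells given 500 nM abemaciclib, an inhibitor of the cell cycle kinases CDK4 and CDK6, both for 4 days in RPMI-1640 medium with serum. The RB1-knockout libraries of the same line were not analysed here, so nothing below separates effects that need the retinoblastoma protein from those that do not, and a single cell line and dose stand for the treatment. The question was how the mRNA of these chaperones differed after 4 days of CDK4/6 inhibition.

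Chaperones hold or refold proteins that have lost, or not yet reached, their folded shape. HSP70 proteins bind short hydrophobic stretches of a client and release them in a cycle driven by ATP, J-domain (HSP40) proteins bring the client and speed ATP hydrolysis, and HSP110 proteins and BAG proteins exchange the nucleotide. HSP90 acts later, on nearly folded clients that include the oestrogen receptor and many kinases, among them CDK4. Small heat shock proteins hold unfolding proteins in large oligomers without ATP, and in the mitochondrion the HSP60-HSP10 chaperonin encloses imported proteins. In heat or other protein-damaging stress, the transcription factor HSF1 raises many of these genes together through heat shock elements, which are inverted repeats of a GAA unit.

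The promoters are shown first, to give where this control sequence was found among the 10 genes and where it was not. RefSeq promoter windows (GRCh38.p14, 250 bases before to 50 after each start) were found for all 10 genes, 16 windows in all since some genes have several starts. Both strands were searched for an element of 2 units, GAANNTTC or TTCNNGAA, and for one of 3 units, TTCNNGAANNTTC or its reverse complement GAANNTTCNNGAA, which contains the shorter ones. The 2-unit element lay in 9 of the 16 windows, and in at least one window of 8 of the 10 genes, against 13.5% of 35116 windows of all genes and 16.2% of 27305 genes. The 3-unit element lay in 4 of the 16 windows, those of HSPA8, HSP90AA1, HSP90AB1 and HSPD1, against 0.49% of all windows. HSPH1 and HSPE1 had neither in their windows, which says only that these letters are not there. Each stretch below runs 5′ to 3′ on the strand of its gene. Capitals mark the upstream match nearest the start, a 3-unit match where present, joined with any match overlapping it. Another 2-unit match of HSP90AA1, at -68 to -61 from its start, stands in lower case.
HSPA1A: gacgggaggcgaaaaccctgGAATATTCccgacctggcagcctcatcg
HSPA1B: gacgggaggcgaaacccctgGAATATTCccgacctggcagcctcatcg
HSPA8: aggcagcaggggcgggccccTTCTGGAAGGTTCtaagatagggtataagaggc
HSP90AA1: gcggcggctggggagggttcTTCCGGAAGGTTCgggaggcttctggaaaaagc
HSP90AB1: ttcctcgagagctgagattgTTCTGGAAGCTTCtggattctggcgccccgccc
HSPD1: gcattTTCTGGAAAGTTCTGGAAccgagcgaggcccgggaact
DNAJB1: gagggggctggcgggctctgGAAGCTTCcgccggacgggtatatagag
HSPB1: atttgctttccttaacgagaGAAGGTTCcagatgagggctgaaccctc
The stretches of HSPA1A (chr6:31815417-31815464, plus strand) and HSPA1B (chr6:31827613-31827660, plus strand) were identical at 47 of 48 bases and carried the same 2-unit element, whose last base stood 99 and 98 bases before the start. Those of HSPA8 (chr11:123062159-123062211, minus strand), HSP90AA1 (chr14:102087100-102087152, minus strand) and HSP90AB1 (chr6:44247811-44247863, plus strand) carried a 3-unit element, 43, 76 and 100 bases before the start. DNAJB1 (chr19:14518417-14518464, minus strand) and HSPB1 (chr7:76302471-76302518, plus strand) carried a 2-unit element 40 and 175 bases before the start. Further matches lay farther upstream, outside the printed stretches. They were 3-unit matches at -230 to -218 in HSPA8 and -165 to -153 in HSP90AB1, and a 2-unit match at -77 to -70 in DNAJB1. In HSPD1 (chr2:197500048-197500090, minus strand) overlapping 3-unit matches made a longer run, 228 bases before the start. HSPD1 and HSPE1 are transcribed away from each other from RefSeq starts 539 bases apart. This run (chr2:197500068-197500085) stood between them, 294 bases from the RefSeq start of HSPE1 and so outside the HSPE1 window. In the gene positions given below, HSPE1 begins at chr2:197500140, nearer to this run.

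With abemaciclib, 3 of the 10 genes were higher (HSPH1, HSPA1A and HSPA1B) and 1 was lower (HSPB1), and 6 did not pass the test (edgeR's quasi-likelihood test, adjusted P under 0.05 over all 10863 genes tested). Over all genes tested, 12.5% were called higher, 13.3% lower and 25.7% in either direction. Log2 fold changes had a median of -0.0018 over all of these and of 0.19 over the 10 chaperones. Among the 3329 genes with a mean of at least 50 CPM (the share of a library's counts, scaled between libraries by TMM), a class that holds 9 of the chaperones, 20.9% were called higher and 17.1% lower. The median log2 fold change of that class was 0.034. The median size of the change, whatever its direction, was 0.25 over the 10 chaperones, 0.25 over that class and 0.32 over all genes tested. The largest change among the 10, in either direction, was 0.47 on the log2 scale. The proliferation marker MKI67 was the check of the treatment and fell from 526 to 5.00 CPM (log2 fold change -6.71, adjusted P = 4.61e-22).

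**Figure D1:**
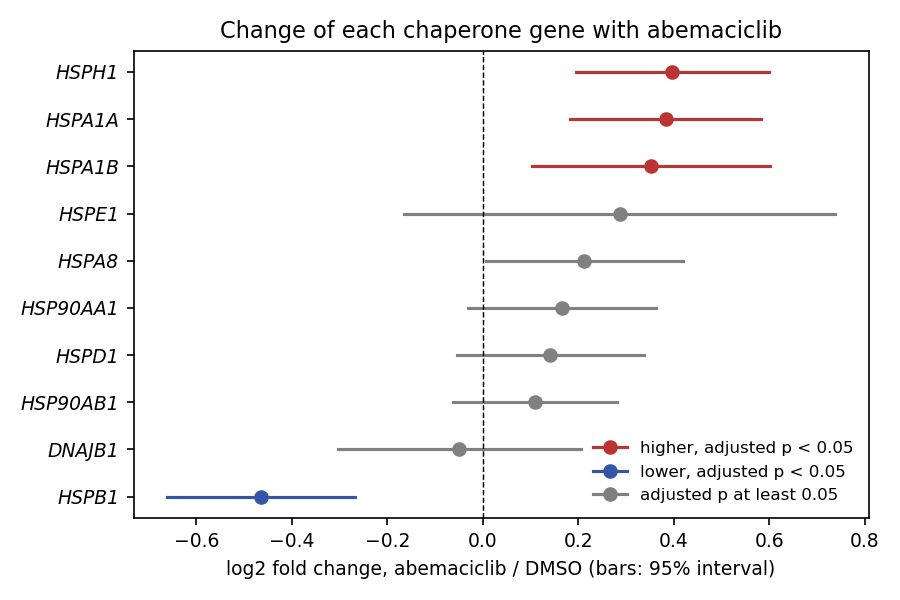
Log2 fold change (horizontal axis, abemaciclib over DMSO) of the 10 chaperone genes with 95% intervals from edgeR's quasi-likelihood fit, 3 libraries a group. The intervals of HSPH1, HSPA1A and HSPA1B lie above 0 and that of HSPB1 lies below 0, from -0.66 to -0.27; that of HSPA8 also lies above 0, but its adjusted P did not pass the threshold.

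Libraries were of similar depth, from 3317860 to 4013156 counts on genes, and a count of 0 allows up to 0.748 to 0.904 CPM (3 counts, counting error only). The 3′ kit gives 1 tag per transcript whatever its length, so levels need no length term between genes, although reads that match copies of a gene elsewhere may have been lost to a different extent in each gene. Luminal epithelial markers were present at 8241 to 8810 CPM in sum with DMSO and 9551 to 10700 CPM with abemaciclib, none of the 8 being at 0, whereas KRT5, KRT14, TP63, COL1A2, COL3A1, PDGFRB, PTPRC, CD3E and LYZ, which mark basal cells, fibroblasts and blood cells, were at 0 in all libraries. The luminal markers did not move as 1: 3 were called higher (ESR1, KRT19 and XBP1), 1 lower (KRT18) and 4 neither. Summed levels of 5 basal markers were 7.54 to 14.8 CPM with DMSO and 0.493 to 1.82 CPM with abemaciclib, those of 6 fibroblast markers 10.4 to 15.8 and 10.4 to 15.7 CPM, and those of 5 blood markers at most 1.19 and 0.27 CPM. Abemaciclib replicate 3 had the highest share of mitochondrially encoded counts, 18.3% against 15.6% to 16.6% in the other 5 libraries, and differed most from its group. In bulk RNA, fewer cells of a kind and less RNA per cell cannot be told apart.

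HSPA1A (ENSG00000204389.10, chr6:31815543-31817946, plus strand), the stress-inducible cytosolic HSP70, was at 306, 315 and 270 CPM with DMSO and at 393, 361 and 408 CPM with abemaciclib. All 3 treated libraries were above all 3 controls. The gene rose from 297 ± 23.8 to 387 ± 24.0 CPM (mean ± SD, n = 3), a rise of 30.4% (log2 fold change 0.38, 95% interval 0.18 to 0.58, adjusted P = 0.00401), and stayed past the threshold in 13 of 13 alternatives.

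HSPA1B (ENSG00000204388.7, chr6:31827738-31830254, plus strand), the near-identical neighbour that encodes the same HSP70 protein 9791 bases downstream, was at 82.4, 84.1 and 72.4 CPM with DMSO and at 100, 97.7 and 107 CPM with abemaciclib. Here too the groups did not overlap. The gene rose by 27.7% (log2 fold change 0.35, 95% interval 0.10 to 0.60, adjusted P = 0.032). This call was lost when any 1 of the 6 libraries was left out (adjusted P from 0.0527 to 0.139). The log2 fold change stayed between 0.29 and 0.39 in those fits. Of 17 stretches of 100 bases along the last 500 bases of the HSPA1A transcript, 2 matched HSPA1B exactly, and how the counting treated reads that match both genes is not given in the sources used here, so the split between the pair is uncertain. Summed before the fit, the pair rose by 0.38 on the log2 scale (adjusted P = 0.00371).

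HSPA8 (ENSG00000109971.14, chr11:123057489-123063230, minus strand), the constitutive HSP70 of the cytosol, was at 211, 233 and 208 CPM with DMSO and at 236, 248 and 272 CPM with abemaciclib. All treated libraries were above all controls, the nearest pair by a narrow margin. The log2 fold change was 0.21 (95% interval 0.0071 to 0.42, adjusted P = 0.124), and none of 14 alternatives brought it past the threshold. Within each library, the counts of the inducible pair over those of HSPA8 stood at 1.84, 1.71 and 1.65 with DMSO and at 2.09, 1.85 and 1.89 with abemaciclib. These ratios did not overlap between the groups, and their log2 means differed by 0.17 (0.79 ± 0.081 and 0.96 ± 0.095, exact two-sided permutation test, P = 0.1, the smallest that 3 libraries against 3 allow).

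HSPH1 (ENSG00000120694.20, chr13:31134973-31162388, minus strand), the HSP110 that exchanges nucleotide on HSP70, was at 256, 270 and 294 CPM with DMSO and at 334, 389 and 356 CPM with abemaciclib. Every treated library was above every control, and HSPH1 had the largest rise of the 10, 31.7% (log2 fold change 0.40, 95% interval 0.20 to 0.60, adjusted P = 0.00316, past the threshold in 14 of 14 alternatives). DNAJB1 (ENSG00000132002.8, chr19:14514769-14560391, minus strand), the heat-inducible J-domain partner of HSP70, was at 94.0, 103 and 83.0 CPM with DMSO and at 86.2, 86.6 and 97.5 CPM with abemaciclib. The groups overlapped, the log2 fold change was -0.049 (95% interval -0.30 to 0.21, adjusted P = 0.821), and it was 0.024 without DMSO replicate 2.

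HSP90AA1 (ENSG00000080824.19, chr14:102080742-102139699, minus strand), the stress-responsive cytosolic HSP90, was at 2726, 2656 and 2423 CPM with DMSO and at 2584, 2707 and 3465 CPM with abemaciclib. Only abemaciclib replicate 3 was above the controls. The log2 fold change was 0.17 (95% interval -0.031 to 0.36, adjusted P = 0.221), and 0.026 without that library. HSP90AB1 (ENSG00000096384.20, chr6:44246166-44253888, plus strand), the constitutive HSP90 that the study used as a reference gene for its quantitative PCR, was at 1835, 1784 and 1723 CPM with DMSO and at 1829, 1883 and 2053 CPM with abemaciclib. The groups overlapped, and the difference of 7.89% was not past the threshold (log2 fold change 0.11, 95% interval -0.063 to 0.28, adjusted P = 0.376; 0.061 without abemaciclib replicate 3). The HSP90AA1 to HSP90AB1 ratio within a library was 1.49, 1.49 and 1.41 with DMSO and 1.41, 1.44 and 1.69 with abemaciclib, again overlapping (log2 difference 0.047, exact permutation P = 0.8; -0.034 without abemaciclib replicate 3).

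HSPB1 (ENSG00000106211.10, chr7:76302673-76304295, plus strand), the small heat shock protein HSP27, a known oestrogen-responsive gene in breast cancer cells, was the most abundant of the 10 and the only one of them called lower. It was at 3916, 4451 and 4464 CPM with DMSO and at 3418, 3319 and 2559 CPM with abemaciclib. Every treated library lay below every control, and abemaciclib replicate 3 was the lowest. The mean went from 4277 ± 313 to 3099 ± 470 CPM (log2 fold change -0.47, 95% interval -0.66 to -0.27, adjusted P = 0.00051), a change of -27.6%. The gene was called lower in 14 of 14 alternatives, and its log2 fold change was -0.34 without abemaciclib replicate 3. The paper reports that oestrogen response gene sets rose with abemaciclib in this line, so HSPB1 does not stand for those sets. ESR1, which encodes the oestrogen receptor, was higher (log2 fold change 0.825, adjusted P = 2.92e-07). Whether the fall of HSPB1 runs through the receptor was not tested.

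HSPD1 (ENSG00000144381.17, chr2:197486584-197516737, minus strand), the mitochondrial chaperonin HSP60, was at 250, 248 and 264 CPM with DMSO and at 273, 277 and 291 CPM with abemaciclib. The groups did not overlap and the spread was the smallest of the 10 in the treated group (3.34% of the mean), but the difference was small (10.3%, log2 fold change 0.14, 95% interval -0.054 to 0.34, adjusted P = 0.306). HSPE1 (ENSG00000115541.11, chr2:197500140-197503449, plus strand), its co-chaperonin HSP10, was at 50.2, 50.5 and 27.9 CPM with DMSO and at 32.7, 50.3 and 73.5 CPM with abemaciclib. The libraries of each group spread widely, from 92 to 272 counts over the 6 libraries. The log2 fold change of HSPE1 was 0.29 (95% interval -0.16 to 0.74, adjusted P = 0.377), and -0.036 without abemaciclib replicate 3. The ratio of HSPD1 to HSPE1 was 4.98, 4.91 and 9.47 with DMSO and 8.34, 5.50 and 3.95 with abemaciclib, with no separation (log2 difference -0.12, exact permutation P = 0.7). It turned to 0.20 without DMSO replicate 3 and to 0.14 without abemaciclib replicate 3.

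**Figure D2:**
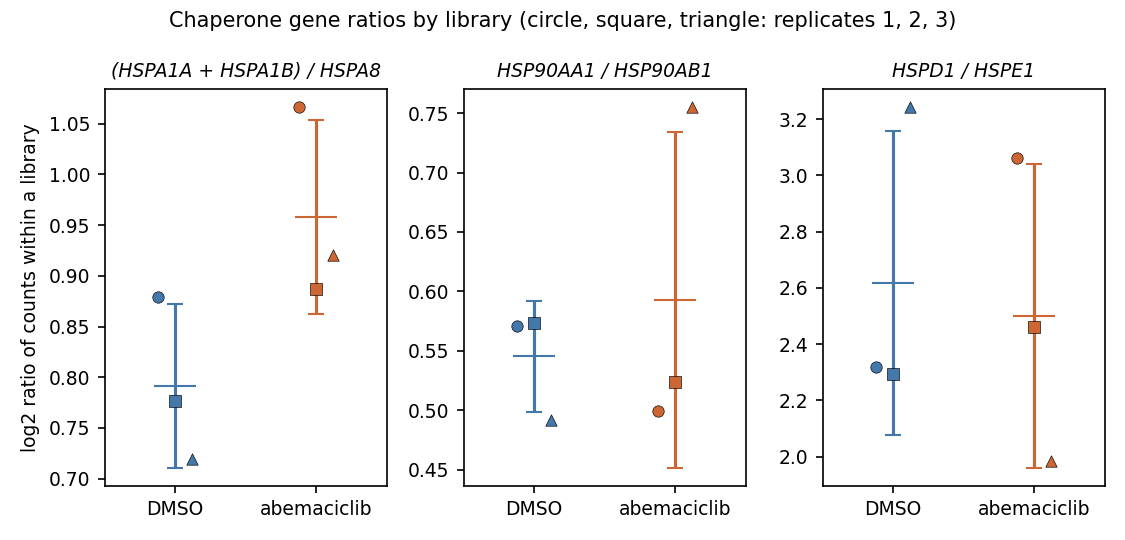
Log2 ratio of counts within each library (vertical axis, a separate scale in each panel) for the inducible to the constitutive cytosolic HSP70 genes, the 2 cytosolic HSP90 genes and the mitochondrial chaperonin pair. Points are libraries, bars the mean ± SD (n = 3); the groups stand apart in the HSP70 panel and overlap in the other panels.

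By position alone, 5 genes had every treated library above every control (HSPA1A, HSPA1B, HSPA8, HSPH1 and HSPD1), 1 had every treated library below (HSPB1) and 4 overlapped. Over all genes tested, 19.1% had the first pattern and 20.1% the second. Median deviation of the 10 genes from their DMSO means was 0.071, 0.16 and 0.35 on the log2 scale in abemaciclib replicates 1, 2 and 3, and 0.030, 0.071 and -0.082 in the DMSO libraries. Abemaciclib replicate 3 held the highest treated level of 8 genes and the lowest of HSPB1, and without it 2 of the 10 were called higher and 1 lower, with a median log2 fold change of 0.088. That library also had the highest mitochondrial share, 18.3%. Among the other treated libraries the order was not the same: replicate 1 had 16.6% with a median deviation of 0.071, and replicate 2 had 15.8% with 0.16. The part of this share in the result was not tested.

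Mean levels with DMSO ran from 42.9 CPM for HSPE1 to 4277 CPM for HSPB1. HSPB1 stood first, followed by HSP90AA1 and HSP90AB1, and then, 6.00-fold lower, by HSPA1A, HSPH1, HSPD1, HSPA8, DNAJB1, HSPA1B and HSPE1. The ranges of HSPA1A and HSPH1, of HSPH1 and HSPD1, and of DNAJB1 and HSPA1B overlapped, and other neighbours were apart. With abemaciclib the mean of HSPB1 was 1.06 times that of HSP90AA1, and their ranges overlapped, against 1.64 times with DMSO. DNAJB1 and HSPA1B changed places with overlapping ranges, and HSPH1 and HSPD1 stood apart. The 10 genes together took 0.965%, 1.03% and 0.978% of all counts with DMSO and 0.918%, 0.951% and 0.940% with abemaciclib, a lower share in every treated library, of which HSPB1, HSP90AA1 and HSP90AB1 made up 87.2% to 87.6% and 83.4% to 84.3%. Of these genes only HSPB1 was called lower. HSP90AA1 and HSP90AB1 had log2 fold changes of 0.17 and 0.11 and were not called.

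**Figure D3:**
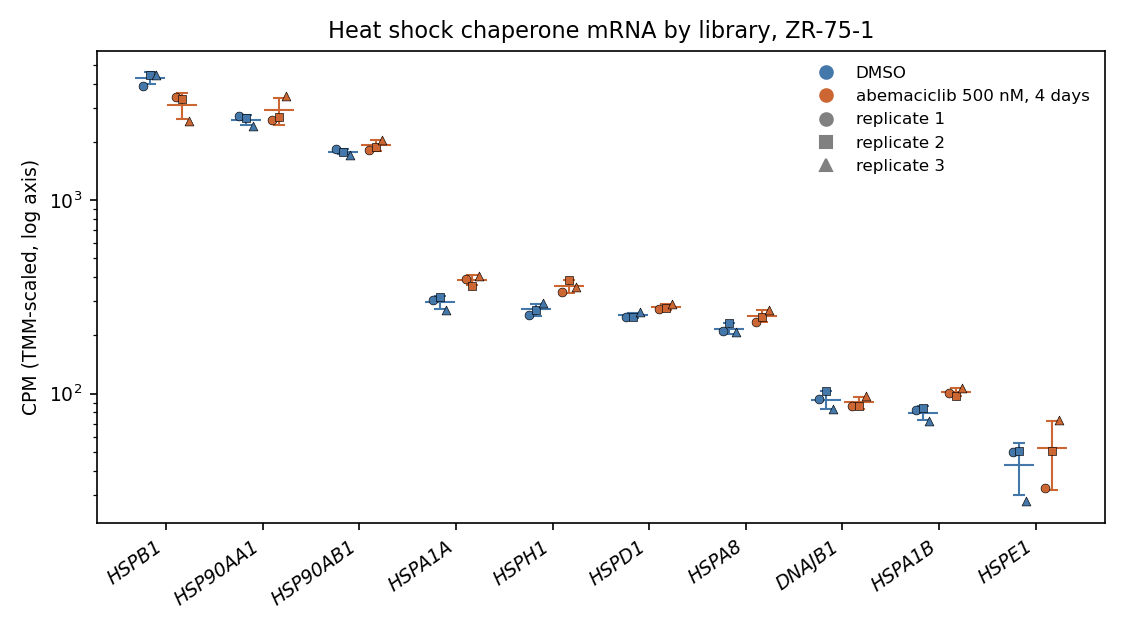
Level of each chaperone gene in each library (vertical axis, TMM-scaled CPM on a log axis), ordered by the DMSO mean. Points are libraries, shaped by replicate number, and bars are the mean ± SD (n = 3); HSPB1 falls towards HSP90AA1 with abemaciclib, and HSPE1 has the widest spread.

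Processed copies of these genes are many in the genome. In the count table, annotated pseudogenes of HSP90AA1 held 1026 counts over the 6 libraries, 1.75% of the counts of the gene, and those of the other members at most 0.687%. Adding them to their genes changed no call. Of the 17 stretches at the transcript end, exact copies elsewhere on the primary chromosomes were found for 5 of HSPD1, 3 of HSPA8, 3 of HSPE1, 2 of HSPA1A and 2 of HSPB1. HSPE1 lies within the annotated span of HSPD1 on the other strand, but for none of the 10 were the last 500 exonic bases shared with another annotated gene.

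Other genes of the HSP70 cycle were called in both directions. The counts of this and the later lists stand beside 12.5% called higher and 13.3% called lower over all genes tested. Of 12 further HSP70 and HSP110 genes, 9 were tested, 4 were higher and 1 lower (median log2 fold change 0.28, against -0.0018 over all genes). Those higher were HSPA13, HSPA4, HSPA5 and HYOU1, and HSPA5 and HYOU1 are counted again in the endoplasmic reticulum list below. HSPA4, the second cytosolic HSP110, was at 147, 147 and 142 CPM with DMSO and at 229, 242 and 259 CPM with abemaciclib. The groups were far apart, a rise of 67.3% (log2 fold change 0.74, adjusted P = 1.93e-06). HSPA13, an HSP70-like ATPase of the secretory pathway, was low and rose from 3.85 to 9.25 CPM (log2 fold change 1.25, adjusted P = 0.0237), a call lost without DMSO replicate 1, DMSO replicate 3 or abemaciclib replicate 1 (adjusted P = 0.0753, 0.0891 and 0.0978). HSPA5, the HSP70 of the endoplasmic reticulum, rose from 361 to 529 CPM (log2 fold change 0.55, adjusted P = 8.54e-05), and HSPA9, the mitochondrial HSP70, differed by 0.24 (adjusted P = 0.106). HSPA4L, the third HSP110, was lower (42.5 and 30.4 CPM, log2 fold change -0.48, adjusted P = 0.0337), a call lost on leaving out any 1 library (0.051 to 0.109). Its 3′ end overlaps a non-coding RNA on the opposite strand. HSPA6, the strictly inducible HSP70, had 10, 16 and 2 counts with DMSO and 1, 5 and 5 with abemaciclib, too few to test.

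The test took in all 20 further J-domain genes, of which 5 were higher and 1 lower (median 0.20). DNAJB6, a suppressor of protein aggregation, was at 31.6, 33.0 and 25.8 CPM with DMSO and at 40.2, 52.8 and 66.5 CPM with abemaciclib (log2 fold change 0.82, adjusted P = 0.00116). DNAJB2, which carries ubiquitylated clients towards the proteasome, rose from 15.2 to 26.3 CPM (0.79, adjusted P = 0.00944), a call lost without DMSO replicate 3 (0.0522) or abemaciclib replicate 2 (0.0569). DNAJC9, a J-domain histone chaperone, was lower (-0.65, adjusted P = 0.0262), with overlapping groups and a call lost without DMSO replicate 1 or 2 or abemaciclib replicate 1 or 2 (0.0917 to 0.168). DNAJA1, an abundant cytosolic partner of HSPA8, differed by 0.14 on the log2 scale (adjusted P = 0.359). Without DMSO replicate 3 the number higher was 3, and the number lower was 0 without each library whose removal cost the DNAJC9 call.

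Of 10 nucleotide exchange factors and binding partners of HSP70, 9 were tested, 3 were higher and 1 lower (median 0.12). BAG3, which links HSP70 to small heat shock proteins in selective autophagy, was at 61.8, 72.5 and 67.6 CPM with DMSO and at 75.9, 103 and 96.7 CPM with abemaciclib (log2 fold change 0.45, adjusted P = 0.0139). BAG1, another exchange factor, was called at 0.35 (adjusted P = 0.0396, but 0.172, 0.154 and 0.216 without DMSO replicate 1, DMSO replicate 2 and abemaciclib replicate 2, and 0.0583 by DESeq2), and ST13 was the third gene called. HSPBP1, which also releases nucleotide from HSP70, fell from 58.7 to 36.9 CPM (-0.67, adjusted P = 0.00162). The count of higher genes was 0 without DMSO replicate 1 and 0 without abemaciclib replicate 2, 1 without DMSO replicate 2 and 2 without abemaciclib replicate 3, and BAG3 was at an adjusted P of 0.0813 and 0.0986 in the first pair of fits.

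Of 17 other HSP90 genes and co-chaperones, 16 were tested, 2 were higher and 2 lower (median 0.065), shares close to the 12.5% and 13.3% over all genes. HSP90B1, the HSP90 of the endoplasmic reticulum, rose from 433 to 541 CPM (log2 fold change 0.32, adjusted P = 0.00863; 0.06 without DMSO replicate 1). PPID, a cyclophilin of HSP90 complexes whose 3′ end overlaps ETFDH on the opposite strand, was higher (0.47, adjusted P = 0.0378), a call lost without DMSO replicate 1 or 3 or abemaciclib replicate 2 or 3 (0.0762 to 0.16). PTGES3, the p23 co-chaperone, was at 314, 277 and 271 CPM with DMSO and at 182, 166 and 235 CPM with abemaciclib, a fall past the threshold in 14 of 14 alternatives (-0.57, adjusted P = 0.000408). STIP1, which joins HSP70 to HSP90, was lower (-0.35, adjusted P = 0.0259). This call was lost without DMSO replicate 2, DMSO replicate 3 or abemaciclib replicate 3 (0.0633, 0.194 and 0.0779), with log2 fold changes of -0.38, -0.24 and -0.24. The value for TRAP1, the mitochondrial HSP90, was -0.12 (adjusted P = 0.43), and -0.058 without abemaciclib replicate 2.

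HSPB8, the small heat shock protein that works with BAG3, was at 5.80, 4.16 and 1.21 CPM with DMSO and at 20.3, 22.7 and 27.8 CPM with abemaciclib. It stood opposite to HSPB1: all treated libraries were several times above all controls (log2 fold change 2.65, 95% interval 1.94 to 3.35, adjusted P = 8.1e-07, 6.26-fold, and 2.24 to 3.11 on the log2 scale on leaving out 1 library). Its level with abemaciclib, 23.6 CPM, remained far under the 3099 CPM of HSPB1. Of the other 7 small heat shock protein genes, HSPB2, HSPB3, HSPB7, HSPB9, CRYAA and CRYAB were at 0 in all libraries and HSPB6 had counts in 1 library.

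All 14 subunits of the cytosolic chaperonin TRiC/CCT and of prefoldin, which fold actin and tubulin, were tested, and 1 was higher and 4 lower (median 0.051). PFDN4 fell from 113 to 68.3 CPM (log2 fold change -0.72, adjusted P = 3.99e-05) and CCT5, whose 3′ end overlaps a non-coding RNA on the opposite strand, from 337 to 240 CPM (-0.49, adjusted P = 0.000236). PFDN5 rose from 231 to 301 CPM (0.39, adjusted P = 0.00525; 0.0537 without DMSO replicate 2), and shares its 3′ end with a non-coding RNA on its own strand. CCT4 and TCP1 were the other genes called lower, and the number lower was 2 without DMSO replicate 1 or 2 or abemaciclib replicate 1 or 2.

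Of 15 further mitochondrial chaperones and quality-control proteases, all tested, 2 were higher (median 0.15), a share close to the 12.5% over all genes. None was lower by edgeR or by DESeq2, and 2 were lower at an unadjusted P under 0.05. GRPEL1, the nucleotide exchange factor of HSPA9, rose from 67.3 to 103 CPM (log2 fold change 0.61, adjusted P = 0.000646). SPG7, a subunit of an inner membrane protease, rose from 34.9 to 55.9 CPM (0.68, adjusted P = 0.00436; 0.0505 without abemaciclib replicate 2). One gene was called lower without abemaciclib replicate 1 and 1 without abemaciclib replicate 2.

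**Figure D4:**
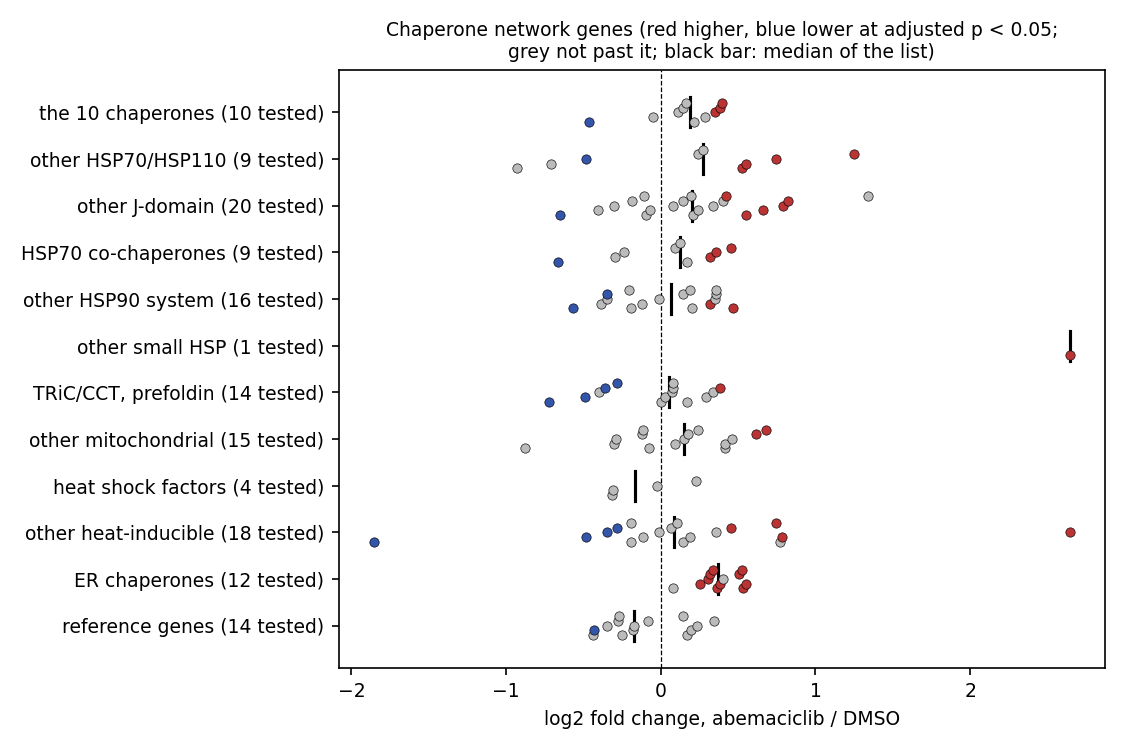
Log2 fold change (horizontal axis, abemaciclib over DMSO) of each tested gene in 12 lists, with red for higher and blue for lower at an adjusted P under 0.05, grey for genes that did not pass it and a black bar for the median of a list. Some genes stand in more than 1 list; the endoplasmic reticulum list has a median of 0.37 and the 10 chaperones one of 0.19.

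No heat shock factor or regulator of one was called. Of 5 such genes, 4 were tested, and edgeR and DESeq2 called 0 (median -0.17), and 0 had an unadjusted P under 0.05. HSF1, the main regulator, was at 75.4, 58.2 and 79.1 CPM with DMSO and at 77.5, 76.7 and 55.4 CPM with abemaciclib (-0.022, 95% interval -0.33 to 0.29, adjusted P = 0.941), and its 3′ end overlaps DGAT1 on the opposite strand. The value for HSF2 was -0.31 (adjusted P = 0.402), -0.0050 without abemaciclib replicate 2 and -0.61 without abemaciclib replicate 3. One gene of the list was called higher without DMSO replicate 1. HSF1 acts largely through its phosphorylation and assembly, which mRNA does not measure. Of 20 other genes that heat is known to induce, 18 were tested, 4 were higher and 4 lower (median 0.086). SERPINH1, a collagen chaperone, rose from 27.6 to 47.4 CPM (0.78, adjusted P = 0.00304), as did HSPB8, HSPA4 and BAG3. IER5, an immediate early gene and partner of HSF1, was at 46.4, 63.3 and 45.7 CPM with DMSO and at 14.8, 15.3 and 12.7 CPM with abemaciclib (-1.86, adjusted P = 2.35e-08), and HSPA4L, STIP1 and TCP1 were also lower. The number lower was 1 without DMSO replicate 2 or 3 and 2 without any 1 of the other libraries.

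For comparison, of 12 chaperones and folding enzymes of the endoplasmic reticulum, 10 were higher and none lower (edgeR; DESeq2 called 9 higher and 0 lower, and 0 were lower at an unadjusted P under 0.05). The median of this list was 0.37. HSPA5 and CALR, a lectin chaperone, led (0.55 and 0.53, adjusted P = 8.54e-05 and 0.000107). The count was 6 without DMSO replicate 1 and 5 without DMSO replicate 2. Whether this list differed from the 10 chaperones was not tested. Of 14 common quantitative PCR reference genes, edgeR and DESeq2 called 0 higher, with 3 higher at an unadjusted P under 0.05, and 1 lower, ACTB (1216 and 903 CPM, log2 fold change -0.43, adjusted P = 0.000436; median of the list -0.18). The value for GAPDH was 0.20 (adjusted P = 0.0805), so the 0.11 of HSP90AB1 was within the range of these genes. Without abemaciclib replicate 3, 1 reference gene was called higher and 2 lower, and without abemaciclib replicate 1, 1 was called higher.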

How the data were processed

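RNA from 3 DMSO and 3 abemaciclib cultures of parental ZR-75-1 cells, described as independent biological replicates, was sequenced with a Lexogen 3′ mRNA kit. The authors trimmed the single-end reads (BBDuk), mapped them to hg38 (STAR 2.7.5b) and counted them per GENCODE gene (featureCounts 2.0.1); the deposited values are raw counts without normalization. The strand setting and the handling of multi-mapping reads are not given in the sources used here. Libraries were grouped by their labels. Of 60656 identifiers, 60401 matched a symbol, 255 had none and 40227 genes were at 0 in all libraries.

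Low genes were removed by filterByExpr, libraries scaled by TMM, and groups compared by the quasi-likelihood test of edgeR 4.0.16 under R 4.3.3, with Benjamini–Hochberg adjustment over the 10863 genes tested, at 0.05. Treatment was the only term. Intervals are 95%, from a standard error equal to the log2 fold change over the square root of F. Ratios were tested with exact permutation in scipy 1.17.1. Gene positions come from another GENCODE release on GRCh38, and promoters from RefSeq. Transcript ends were searched for copies with minimap2 2.31. The test was checked on simulated counts.

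The 10 genes and all lists were chosen with earlier results of these data known. Named were the 10, up to 2 risers and 2 fallers of each list by log2 fold change, and genes picked for their role (HSF1, HSF2, HSPA9, HSPA5, HSP90B1, TRAP1, HSPA4, BAG3, DNAJA1, MKI67). The remaining called genes of a list, GAPDH, HSPA6 and the genes at 0 were named after their values were seen. Genes whose pattern was most like that of the 10 are not reported here. Alternatives were DESeq2 1.42.0, edgeR with the size factors of DESeq2 or with total counts alone, no filter, at least 10 counts in every library, a replicate block, HSPA1A and HSPA1B summed, pseudogene counts added, and each library left out. RB1-knockout libraries were not analysed here.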

Additional observations from a re-analysis of the deposited data

How the results depend on the processing

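On leaving out 1 library, 2 log2 ratio differences changed sign: that of HSP90AA1 to HSP90AB1 ranged from -0.034 (without abemaciclib replicate 3) to 0.094, and that of HSPD1 to HSPE1 from -0.40 to 0.20, with 0.20 without DMSO replicate 3 and 0.14 without abemaciclib replicate 3. With 3 libraries a group no ratio test could pass 0.05. Leaving out 1 library gave 981 to 1412 genes higher and 1132 to 1529 lower, 2 chaperones higher (HSPA1B was lost each time) and 1 lower, a chaperone median of 0.088 to 0.25, an HSP70 ratio difference of 0.11 to 0.21 and a difference in the share of counts of -0.069 to -0.036 percentage points. HSPA1B was also lost with no filter (adjusted P = 0.0516). Of 624 values of single genes in the alternatives, 47 lost a call that the main fit had made. Another 5 changed sign: DNAJB1 (-0.13 to 0.024 on leaving out 1 library), HSPE1 (-0.036 to 0.53) and HSF1 (-0.15 to 0.12, positive in 3 of 6 fits). Of 264 list counts, 56 moved by over 1.5 times or changed to or from none, which can be a single gene crossing the threshold. DESeq2 called 2 HSP70 partners and 1 HSP90 gene higher. Same-numbered libraries did not deviate together (correlations -0.043, 0.0070 and -0.089), so the numbers were not taken as pairs; with a replicate block, 1139 genes were higher and 1280 lower, and HSPA1B (adjusted P = 0.0661), HSPA4L, BAG1, PPID and STIP1 were lost. The causes of these differences were not tested. Genes with few counts, such as HSPA6, could not be tested at this depth.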
